A study of Mus musculus with 16 samples.

Results

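Genes that carry glucose, lactate and other monocarboxylates, amino acids and related small solutes across membranes were followed in mouse spleen CD4+ T cells that lacked a part of the IkB kinase complex, with and without kidney inflammation. The members were all genes whose symbol begins with Slc1a, Slc2a, Slc3a, Slc5a, Slc6a, Slc7a, Slc16a, Slc36a, Slc38a or Slc43a. Of 101 such genes with a probe on the array, 65 had a probe well above background on at least 2 of the 16 arrays, among 14676 genes that passed the same filter. The brightest probe stood for each gene, and Slc2a4rg-ps and Slc7a6os were among the 65 by their prefix although neither is a transporter gene.

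All mice were males of 8 to 10 weeks that expressed Cre recombinase from the CD4 promoter (CD4cre), so that a floxed gene is lost in T cells from the stage at which CD4 is made. One genotype carried CD4cre alone (the Cre controls), one carried CD4cre with IKK2fl/fl, and one carried CD4cre with the floxed NEMO allele, which the labels spell NEMOfl/f. Ikbkb encodes the kinase IKK2, and Ikbkg encodes NEMO, the regulatory subunit of the same complex, which releases NF-kappaB. Mice with nephrotoxic serum nephritis (NTN) received 2.5 mg of sheep serum per g of body weight intraperitoneally and were sampled on day 10, and the others had no inflammation. There were 3 arrays in each Cre and IKK2 group and 2 in each NEMO group, 1 array per sample. The labels do not state that each sample came from its own mouse, so p-values measure the spread between these samples.

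A resting T cell takes up little sugar or amino acid, and activation through the antigen receptor raises uptake of both. GLUT1 (Slc2a1) and GLUT3 (Slc2a3) bring glucose in, and MCT1 (Slc16a1) and MCT4 (Slc16a3) carry lactate with a proton, MCT4 mainly outward from cells with high glycolysis. ASCT2 (Slc1a5), SNAT1 (Slc38a1) and SNAT2 (Slc38a2) bring in glutamine and other neutral amino acids. LAT1 (Slc7a5) exchanges intracellular glutamine for leucine, which activates the kinase complex mTORC1, and reaches the surface with the heavy chain 4F2hc (Slc3a2).

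Values below are log2 processed spot intensity minus the 75th percentile of the same array, so 0 marks the 75th percentile of that array. A level can be compared between samples for 1 gene but not between genes, since probes differ in brightness. Differences are log2 differences of group means from limma, with the standard error (SE), and a gene was called when its Benjamini-Hochberg adjusted p over all 14676 genes was under 0.05. In such bulk RNA, fewer cells of a type and less RNA per cell cannot be told apart.

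The 10 CD4 T cell markers examined, Cd4 and Cd3e among them, were well above background on all 16 arrays. Ikbkb averaged 3.30 in Cre controls, 3.06 in IKK2 and 2.95 in NEMO mice without NTN, and 3.30, 2.96 and 2.82 with NTN. Ikbkg averaged -0.70 in Cre controls, -0.02 in IKK2 and -0.84 in NEMO mice without NTN, and -0.31, -0.41 and -0.65 with NTN. Ikbkb was thus lowest in NEMO mice, not in IKK2 mice. Where these probes lie relative to the deleted exons is not known here, so they do not check the labels. The arrays came from 3 slides: all 4 NEMO arrays were on a slide of their own, the 3 Cre arrays without NTN shared a slide with 1 IKK2 array without NTN, and the other 8 arrays were on the remaining slide. NEMO genotype and slide therefore cannot be told apart. The mean of 9 B cell markers was -3.22 to -2.78 in Cre controls without NTN, -1.18 to -0.56 in IKK2 and -1.41 to -1.15 in NEMO mice without NTN, and the mean of 8 myeloid markers was -1.27 to -0.62, 0.86 to 0.96 and 0.88 to 1.09 in the same groups. NEMO samples also differed from Cre controls in T cell state: without NTN 22 of 25 cell cycle genes and 16 of 20 activation genes were called higher, and 12 of 15 naive T cell genes lower, against 21% of all genes higher and 22% lower.

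Of the 65 transporter genes, 46 were well above background on all 16 arrays, 6 on 10 to 15 arrays and 13 on fewer than 10. The Slc16a family gave the most members, 12 of 14 genes with a probe, followed by 9 of 16 Slc7a and 9 of 11 Slc38a genes. Both Slc3a and all 3 Slc43a genes passed, against 8 of 19 Slc6a genes, a family known for neurotransmitter uptake. Among the 36 genes that did not pass were the glutamate carriers Slc1a1, Slc1a2 and Slc1a3, the liver-type glucose carrier Slc2a2 and the fructose carrier Slc2a5. The cystine-glutamate exchanger Slc7a11 was well above background on 1 array only and was not tested.

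Several of the best known uptake genes of T cells were not called in any of the 4 comparisons of a knockout with Cre controls. Slc2a1 read 2.60, 3.06 and 2.96 in Cre controls without NTN, and 3.21, 3.08 and 2.86 in Cre controls with NTN. It read 2.77, 2.84 and 2.65 in IKK2 and 2.97 and 2.96 in NEMO mice without NTN, and 2.79, 2.88 and 2.95 in IKK2 and 3.19 and 2.84 in NEMO mice with NTN. Each knockout group overlapped the Cre range of the same condition. The NEMO minus Cre difference for Slc2a1 was 0.09 without NTN, with a 95% interval of -0.23 to 0.42, and -0.03 with NTN, with an interval of -0.36 to 0.29. For Slc3a2, the 4F2hc heavy chain, the same differences were 0.00 (interval -0.24 to 0.24) and -0.04 (interval -0.28 to 0.20). The glutamine carrier Slc38a1 differed by 0.08 (interval -0.12 to 0.28) and 0.06 (interval -0.14 to 0.26), and the arginine carrier Slc7a1 by 0.04 (interval -0.20 to 0.28) and -0.13 (interval -0.37 to 0.11). Slc16a1 differed by -0.22 (interval -0.46 to 0.02) and -0.18 (interval -0.42 to 0.06). For the probes tested, changes beyond those bounds in either direction are outside the intervals, while smaller ones were not detectable here. Another Slc38a1 probe, well above background on all 16 arrays too, gave 0.31 and 0.45, above both intervals. A further Slc38a1 probe gave 0.09 and 0.14. Slc1a4, Slc7a6, Slc36a1, Slc43a1 and Slc6a6 were not called in these 4 comparisons either, although a second Slc36a1 probe gave -0.84 and -0.80 in NEMO minus Cre.

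NEMO-deficient cells differed from Cre controls in 28 of the 65 transporter genes without NTN, 15 higher and 13 lower. With NTN 32 differed, 17 higher and 15 lower. Among all genes tested, 43% were called in the first comparison (21% higher, 22% lower) and 48.4% in the second (18.8% higher, 29.6% lower), so the members' shares, 43.1% and 49.2%, lie at the background. The groups did not overlap for 40 and 46 members, 61.5% and 70.8%, against 67% and 70.3% of all genes. The median member differed by 0.01 and -0.04, against -0.06 and -0.14 over all genes. These 2 comparisons share no array. In all 12 genes were higher in both, 80% of those higher without NTN and 70.6% of those higher with it, and 11 were lower in both, 84.6% and 73.3%. None was called in opposite directions. The counts include Slc16a9, higher in both, and with NTN also Slc1a6, higher, and Slc5a2, lower. Slc1a6 was well above background on 3 arrays in all, each of them NEMO. These members passed the filter only through the group in which they were high, so their calls are no support. The shares called in both were not counted over all genes, and all 4 NEMO arrays were on 1 slide. The overlap can therefore not be read as particular to transporters. B cell markers were called higher in 6 of 9 cases without and 1 of 9 with NTN, and myeloid markers in 6 of 8 and 4 of 8. With the B cell mean added as a covariate, 7 members were called without NTN and 34 with it. Without NTN that mean did not overlap between NEMO and Cre arrays, so the fit can hardly separate it from genotype. Single genes are given for this fit only where they were named by the rule stated at the end. Of those called without NTN, Slc16a3, Slc16a5, Slc16a8 and Slc6a8 were then still called. Slc2a6, Slc2a3, Slc43a3, Slc6a12, Slc6a13, Slc1a5, Slc7a5, Slc7a7, Slc38a2, Slc38a9, Slc5a3 and Slc16a9 were not, each in the same direction as before. Other members described below, among them Slc2a9, Slc7a3 and Slc5a11, are not covered by these lists.

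**Figure D1:**
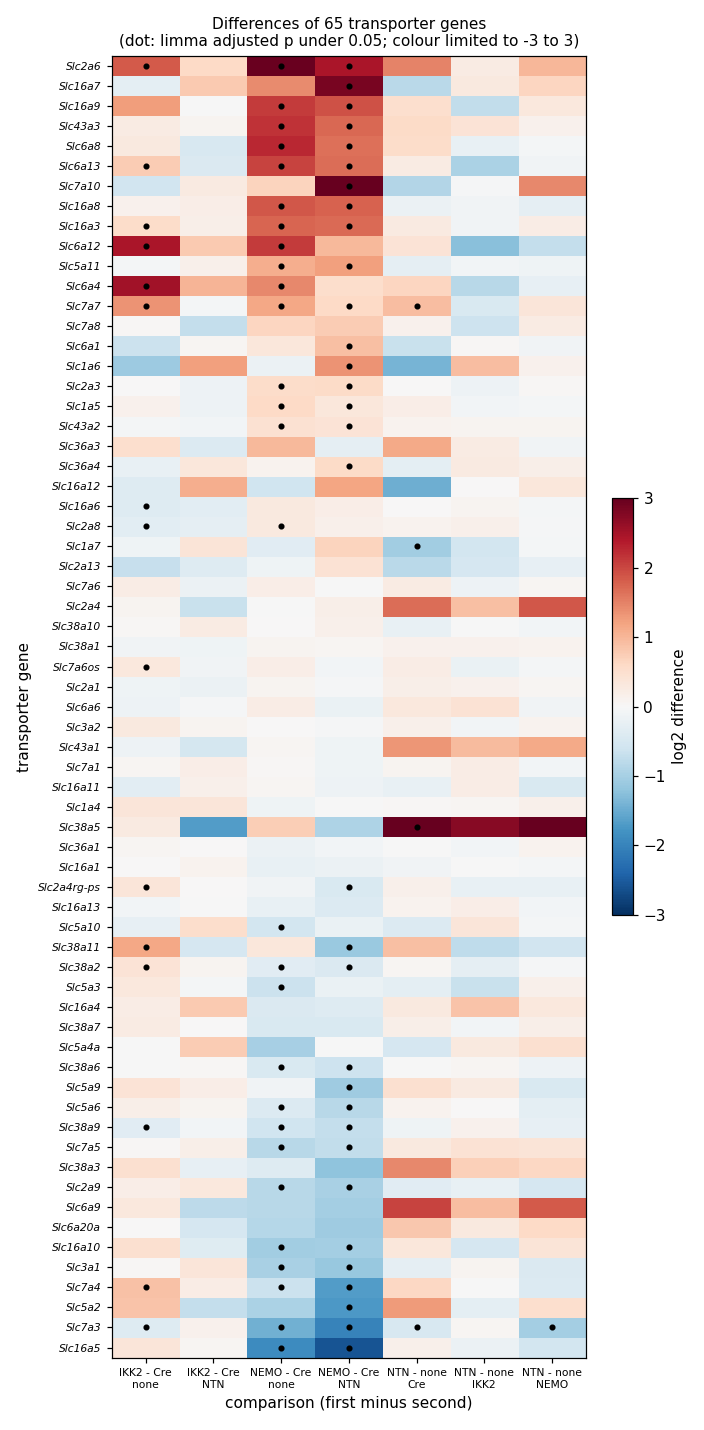
Log2 differences of the 65 transporter genes in 7 comparisons, 1 row per gene, ordered by the mean of both NEMO minus Cre differences; colour runs from -3 (blue) to 3 (red) and a dot marks an adjusted p under 0.05 by limma. Dots fill both NEMO minus Cre columns (28 and 32 genes), 15 genes have one in IKK2 minus Cre without NTN, and few or none have one in the other 4 columns.

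Among glucose carriers, Slc2a6 (GLUT6) had the largest difference between NEMO and Cre cells without NTN. It read -2.04, -0.95 and -1.45 in Cre controls and 1.77 and 1.19 in NEMO mice without NTN, and the groups did not overlap. With NTN it read -1.23, 0.80 and 0.48 in Cre controls against 2.43 and 2.52 in NEMO mice. The difference was 2.96 without NTN (SE 0.52, adjusted p = 0.00076, 7.77-fold) and 2.46 with NTN (SE 0.52, adjusted p = 0.0023). A second Slc2a6 probe gave 3.25 and 2.0. GLUT6 sits mostly on internal membranes and is known from myeloid cells and activated lymphocytes. The myeloid marker mean was higher in the same groups, and its part in the Slc2a6 difference was not tested. With the B cell mean as a covariate Slc2a6 differed by 1.93 without NTN (adjusted p = 0.34), and with NTN it was still called.

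Slc2a3, the high-affinity carrier GLUT3, was higher in NEMO cells by a smaller amount. It read 2.27, 2.44 and 2.53 in Cre and 2.90 and 3.04 in NEMO mice without NTN, and 2.29, 2.59 and 2.40 against 2.91 and 3.08 with NTN. The difference was 0.56 (SE 0.12, adjusted p = 0.0033) without and 0.57 (SE 0.12, adjusted p = 0.0026) with NTN, a 1.47-fold and a 1.48-fold higher level. Slc2a9, a urate carrier of the same family, was called lower in both, at -0.82 and -0.95 in NEMO against -0.19 to 0.06 in Cre mice without NTN. Slc2a4, the insulin-responsive carrier GLUT4, was well above background on 4 arrays only.

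**Figure D2:**
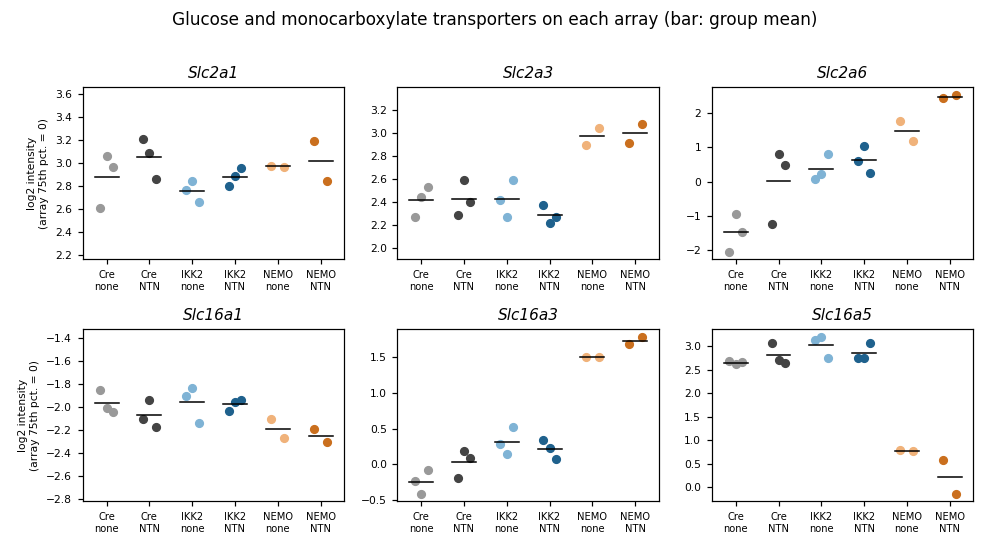
Log2 intensity, with the 75th percentile of each array at 0, of 6 glucose and monocarboxylate transporter genes in the 6 groups; each point is 1 array and each bar the group mean. Slc2a3, Slc2a6 and Slc16a3 are highest and Slc16a5 is lowest in the NEMO groups, while for Slc2a1 each knockout group overlaps the Cre arrays of its condition and for Slc16a1 the groups lie close together.

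Lactate and other monocarboxylate carriers moved in both directions. Slc16a3, the lactate exporter MCT4, read -0.24, -0.41 and -0.08 in Cre and 1.51 and 1.5 in NEMO mice without NTN. With NTN the values were -0.20, 0.19 and 0.08 against 1.68 and 1.79. NEMO cells were higher by 1.75 (SE 0.14, adjusted p = 3.3e-06, 3.36-fold) without and by 1.71 (SE 0.14, adjusted p = 3.6e-06, 3.27-fold) with NTN. A second Slc16a3 probe gave 1.72 and 1.62, and with the B cell mean added as a covariate it was still called, at 1.60 and 1.69. Bsg, the chaperone basigin that brings MCT1 and MCT4 to the cell surface, was higher by 0.82 and 0.45, and was called in both.

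Slc16a8 (MCT3, a lactate carrier known from retinal epithelium) read -3.47, -3.76 and -3.57 in Cre and -1.75 and -1.74 in NEMO mice without NTN. It was higher in NEMO cells by 1.85 (SE 0.26, adjusted p = 0.00015) without and 1.76 (SE 0.26, adjusted p = 0.00020) with NTN. Slc16a7 (MCT2) was scattered in Cre controls, at -3.40, -1.22 and -1.39 without and -4.14, -2.45 and -1.82 with NTN, against -0.57, -0.62, 0.40 and -0.29 in NEMO mice. Its difference was called with NTN only, at 2.86 (SE 0.85, adjusted p = 0.016), and not without Cre NTN array 1 or NEMO NTN array 1. Slc16a9 was well above background in all 4 NEMO arrays and in no other, so only a bound holds: at least 1.20-fold higher without NTN and at least 1.14-fold higher with it. It passed the filter only through the group in which it was high, so its call is no support. Such bounds set the bright group's mean against the dimmest signal that counts as well above background on the dim group's arrays. With normexp background correction the Slc16a9 difference with NTN was -0.029, so its direction is not stable.

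Slc16a5 (MCT6) was the most reduced in NEMO cells. It read 2.69, 2.61 and 2.65 in Cre and 0.78 and 0.76 in NEMO mice without NTN, and 3.06, 2.70 and 2.64 against 0.58 and -0.14 with NTN. The difference was -1.88 (SE 0.20, adjusted p = 2.3e-05) and -2.58 (SE 0.20, adjusted p = 2.4e-06), a 3.68-fold and a 5.99-fold lower level, and a second, dimmer probe gave -1.78 and -3.45. Slc16a10 (TAT1), which carries aromatic amino acids, was called lower in both, at -2.80 and -3.12 in NEMO against -2.12 to -1.78 in Cre mice without NTN.

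The promoters of 1 lactate carrier and 1 glucose carrier that were higher in NEMO cells are shown beside those of the family member that was not called. Each is the 250 bases before the RefSeq start on the gene's strand (GRCm38.p6), in lower case, with capitals for matches to ACGTG, the core to which hypoxia-inducible factors bind, or to the E-box CACGTG, bound by MYC and MAX, which contains that core. Both strands were searched.
Slc16a3, chr11:120948817-120949066, plus strand: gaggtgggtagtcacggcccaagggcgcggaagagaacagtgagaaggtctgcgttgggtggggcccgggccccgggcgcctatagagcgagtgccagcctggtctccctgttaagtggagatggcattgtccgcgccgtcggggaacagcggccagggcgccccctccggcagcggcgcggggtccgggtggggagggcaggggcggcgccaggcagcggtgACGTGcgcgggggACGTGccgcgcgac
Slc16a1, chr3:104638414-104638663, plus strand: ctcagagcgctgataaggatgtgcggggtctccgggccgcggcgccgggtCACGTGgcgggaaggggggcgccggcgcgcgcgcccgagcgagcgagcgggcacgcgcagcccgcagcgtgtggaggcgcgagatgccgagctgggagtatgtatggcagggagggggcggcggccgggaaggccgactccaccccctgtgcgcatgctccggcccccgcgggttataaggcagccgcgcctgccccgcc
Slc2a6, chr2:27027999-27028248, minus strand: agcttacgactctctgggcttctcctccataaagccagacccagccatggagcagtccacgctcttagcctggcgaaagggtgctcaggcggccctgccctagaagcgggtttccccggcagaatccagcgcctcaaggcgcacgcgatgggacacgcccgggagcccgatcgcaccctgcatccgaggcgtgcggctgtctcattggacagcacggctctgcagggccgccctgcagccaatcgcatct
Slc2a1, chr4:119108495-119108744, plus strand: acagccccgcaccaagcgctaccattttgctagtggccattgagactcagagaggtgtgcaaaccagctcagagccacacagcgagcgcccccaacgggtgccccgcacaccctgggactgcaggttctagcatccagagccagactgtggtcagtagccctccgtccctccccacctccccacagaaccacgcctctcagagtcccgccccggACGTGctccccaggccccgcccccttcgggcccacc
Slc16a3 holds the core 27 and 14 bases before its start, and Slc2a1 holds it 36 bases before. Slc16a1 holds an E-box 200 bases before its start, and the Slc2a6 window holds neither motif. Of the 46 members with a RefSeq promoter, 14 held ACGTG, against 16.6% of all 32851 promoters, and 8 held CACGTG, against 6.02%. A member counted if any of its promoters matched, whereas the shares are of single promoters, so the 2 are unlike measures. Of the 46 members, 37 had 1 promoter. Of the 8 genes higher in both NEMO comparisons that had a promoter entry 2 held ACGTG, of the 7 lower in both 0 did, and of the 22 called in neither 11 did. Also searched were a kappaB pattern and TGATGCAA, the CARE core. The kappaB pattern was in 7 of the 46, against 7.25% of promoters, and in 3, 0 and 1 of those sets. These 3 were Slc43a2, Slc6a13 and Slc7a7, with 2, 3 and 5 promoters. TGATGCAA was in 1 of the 46, against 0.791%. The 8 include Slc16a9, whose call is no support. A match describes letters, not a bound site.

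Among amino acid carriers, Slc1a5 (ASCT2) read 3.88, 3.92 and 3.82 in Cre and 4.35 and 4.58 in NEMO mice without NTN, and 4.05, 4.14 and 4.01 against 4.36 and 4.47 with NTN. NEMO cells were higher by 0.59 (SE 0.09, adjusted p = 0.00021) and 0.35 (SE 0.09, adjusted p = 0.0060). By their brightest probes the other carriers of glutamine did not follow: Slc38a1 was not called, and Slc38a2 (SNAT2) was lower. Another Slc38a1 probe gave 0.31 and 0.45. Slc38a2 read 3.67, 3.53 and 3.66 in Cre and 3.09 and 3.48 in NEMO mice without NTN. Its difference was -0.33 (SE 0.11, adjusted p = 0.024) without and -0.44 (SE 0.11, adjusted p = 0.0049) with NTN. In the Slc38a family 0 of 9 genes were called higher and 3 lower without NTN, and 0 higher and 4 lower with NTN, where 22% and 29.6% of all genes were lower. The Slc38a2 call without NTN was lost without Cre array 1 or 3 or NEMO array 1.

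Slc7a5, the light chain LAT1, was lower in NEMO cells although its partner Slc3a2 was not called. It read -0.11, -0.05 and 0.14 in Cre and -0.64 and -1.02 in NEMO mice without NTN, and 0.32, 0.21 and 0.35 against -0.29 and -0.58 with NTN. The difference was -0.82 (SE 0.21, adjusted p = 0.0081) without and -0.73 (SE 0.21, adjusted p = 0.014) with NTN. A second probe gave -0.85 and -0.45, and neither call held without the second NEMO array of its condition. The Slc1a5 call with NTN was also lost without NEMO NTN array 2. Slc43a2 (LAT4), which carries leucine and similar amino acids without a heavy chain, was called higher in both, at 2.46 and 2.33 in NEMO against 1.87 to 2.0 in Cre mice without NTN. Slc38a9, the lysosomal carrier that senses arginine for mTORC1, read 1.83, 2.09 and 1.99 in Cre and 1.35 and 1.40 in NEMO mice without NTN. It was lower in NEMO cells, with a difference of -0.59 without NTN (SE 0.10, adjusted p = 0.00052) and -0.72 with NTN (SE 0.10, adjusted p = 0.00012). Both other Slc38a9 probes were also lower, at -0.32 and -0.36 without NTN.

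Carriers of cationic amino acids split as well. Slc7a3 (CAT3) read -1.35, -1.53 and -1.48 in Cre and -2.95 and -2.85 in NEMO mice without NTN, and -1.71, -2.05 and -2.01 against -3.96 and -3.90 with NTN. It was called lower in both, by -2.01 with NTN (SE 0.11, adjusted p = 2.9e-07, 4.02-fold). Slc7a4, a relative of the cationic carriers, was called lower in both too, at -3.18 and -3.34 in NEMO against -1.76 to -1.21 in Cre mice with NTN. Slc7a1, the main arginine carrier of proliferating cells, was not called against Cre. Slc7a7 (y+LAT1), known from macrophages and kidney, was higher in NEMO cells, by 1.16 (SE 0.18, adjusted p = 0.00032) without and 0.59 (SE 0.18, adjusted p = 0.018) with NTN, the second not called without NEMO NTN array 1. It read -2.02, -1.93 and -1.88 in Cre and -0.75 and -0.83 in NEMO mice without NTN.

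Slc43a3, which carries purine nucleobases, read -1.10, -1.34 and -1.21 in Cre and 0.99 and 0.92 in NEMO mice without NTN. With NTN it read -1.08, -0.86 and 0.01 against 1.11 and 1.07. NEMO cells were higher by 2.17 (SE 0.27, adjusted p = 5.4e-05, 4.51-fold) and 1.73 (SE 0.27, adjusted p = 0.00027, 3.32-fold). Slc6a8, the creatine carrier, read -3.10, -2.66 and -2.28 in Cre and -0.51 and -0.33 in NEMO mice without NTN, a difference of 2.26 (SE 0.24, adjusted p = 2.4e-05, 4.78-fold). It was called with NTN as well, at -2.15, -2.15 and -2.10 against -0.50 and -0.48. Slc6a8 lies on chromosome X, as the floxed Ikbkg does, with 32 protein-coding genes between them in the RefSeq order. The labels do not give the strain in which the floxed allele was made, and flanking strain sequence was not tested.

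Among carriers of osmolytes and transmitters, Slc6a13 (GAT2, for GABA and taurine) was called higher in both NEMO comparisons. It read -2.75, -3.06 and -3.23 in Cre and -0.89 and -1.10 in NEMO mice without NTN, a difference of 2.02 (SE 0.26, adjusted p = 7.1e-05). Slc6a12 (BGT1, for betaine) was called without NTN only, at 2.09 (SE 0.60, adjusted p = 0.015), but its normexp value was 0.10 and the call was lost without NEMO array 2. The taurine carrier Slc6a6 was not called. Slc5a3, the sodium and myo-inositol cotransporter, was called lower without NTN, at -0.64 (SE 0.23, adjusted p = 0.044). That call held in 4 of 16 alternatives, being lost without Cre array 1 or 3 or NEMO array 1, and a second probe gave -0.23. Slc5a11, another myo-inositol carrier, was called higher in both, at -0.73 and -0.99 in NEMO against -2.13 to -1.62 in Cre mice without NTN. The vitamin carrier Slc5a6 was called lower in both, at 1.20 and 1.22 against 1.60 to 1.64. Slc7a10 was higher with NTN in NEMO than in Cre mice by 2.99 (SE 1.02, adjusted p = 0.030), where Cre arrays ranged from -6.40 to -3.75 and 1 of 3 was well above background. It was not called without Cre NTN array 1 or 2 or either NEMO NTN array. Slc5a2 was well above background on 2 arrays in all, both Cre with NTN, so it was tested only through the group in which it was high.

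**Figure D3:**
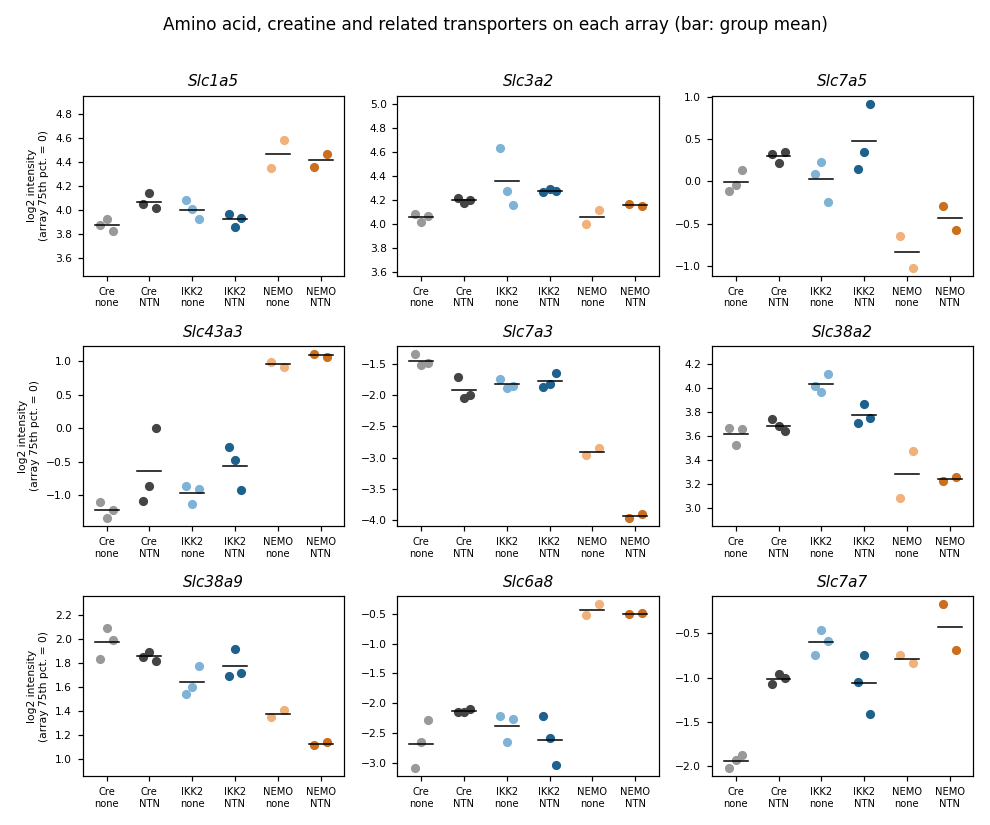
Log2 intensity, with the 75th percentile of each array at 0, of 9 amino acid, creatine and nucleobase transporter genes in the 6 groups; points are arrays and bars group means. Slc1a5, Slc43a3 and Slc6a8 are highest in NEMO mice, Slc7a5, Slc7a3, Slc38a2 and Slc38a9 are lowest there, Slc3a2 peaks on 1 IKK2 array without NTN (4.63), and Slc7a7 is lowest in Cre mice without NTN.

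IKK2-deficient cells without NTN differed from Cre controls in 15 transporter genes, 11 higher and 4 lower, or 23.1%, against 14.5% of all genes tested (10% higher, 4.52% lower). The groups did not overlap for 20 members, 30.8%, against 30% of all genes. With NTN 0 of the 65 were called by limma, against 2.58% of all genes. An unadjusted p under 0.05 was found for 7 of the 65, against 2653 of all 14676 genes. There the groups did not overlap for 14 members, 21.5%, against 24.9% of all genes. Slide bears on the first comparison, since 2 of the 3 IKK2 arrays were on another slide. With slide as a block 2 members were called. That fit and the values within the shared slide set all 3 Cre arrays against 1 IKK2 array, so a single array decides them. Adding the B cell mean as a covariate left 0 called. That mean did not overlap between IKK2 and Cre arrays without NTN, so the fit can hardly separate it from genotype. Leaving out Cre array 2 or 3 or IKK2 array 2 without NTN gave 7, 6 and 8.

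Slc7a7 had the smallest adjusted p of these. It read -0.74, -0.47 and -0.59 in IKK2 against -2.02, -1.93 and -1.88 in Cre mice without NTN, with no overlap. The difference was 1.35 (SE 0.16, adjusted p = 0.00064, 2.55-fold), and 1.36 with slide as a block (adjusted p = 0.012) or within the shared slide. With the B cell mean as a covariate it was 1.14 (adjusted p = 0.61). Slc16a3 was higher by 0.56 (SE 0.13, adjusted p = 0.015), reading 0.29, 0.15 and 0.52, and by 0.76 with slide as a block (adjusted p = 0.029), but was not called without Cre array 2. Slc2a6 was higher by 1.84 (SE 0.46, adjusted p = 0.023), reading 0.07, 0.22 and 0.80, and by 2.28 with slide as a block, where the adjusted p was 0.078. The Slc2a6 call was lost without Cre array 1 or 3 or IKK2 array 3.

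Slc38a2 was higher in IKK2 cells, by 0.41 (SE 0.10, adjusted p = 0.015), whereas it was lower in NEMO cells. It read 4.02, 3.97 and 4.12 in IKK2 against 3.53 to 3.67 in Cre mice, and 0.50 with slide as a block missed the threshold (adjusted p = 0.063), as it did without Cre array 2. Slc7a4 was also higher in IKK2 cells, by 0.87 (SE 0.19, adjusted p = 0.011), and by 0.61 with slide as a block (adjusted p = 0.21). Slc38a9 was lower, at -0.33 (SE 0.09, adjusted p = 0.028), and -0.19 with slide as a block (adjusted p = 0.38), and was lost without Cre array 2 or 3 or IKK2 array 1 or 2. Slc16a6 was called lower at -0.39, but its second probe gave 1.13, so its direction is not settled.

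Transmitter carriers were dim here. Slc6a4, the serotonin carrier, was well above background on all 3 IKK2 arrays and on none of the 3 Cre arrays without NTN, at least 2.17-fold higher (adjusted p = 0.0053). It read -3.0, -3.76 and -3.96 in IKK2 against -5.20, -6.32 and -6.74. With the B cell mean added as a covariate the Slc6a4 difference was -1.39. Its call was lost under normexp and with slide as a fixed block. Slc6a12 was higher by 2.44 (SE 0.54, adjusted p = 0.012), with 2 IKK2 arrays and 1 Cre array well above background. The Slc6a12 call was lost with slide as a fixed block, only the arrays compared or the B cell mean as a covariate. Its alternatives ran from 0.45 to 3.07. Slc6a13 was higher by 0.77 (SE 0.23, adjusted p = 0.044), a call that held in 5 of 19 alternatives and was lost without Cre array 2 or 3 or any 1 IKK2 array. Slc38a11 was called too, with a bound of at least 1.14-fold that does not hold without IKK2 array 2. It was well above background on 3 arrays in all, 2 of them IKK2 without NTN. It passed the filter only through the group in which it was high, so its call is no support. The B cell and myeloid marker means lay above the Cre range on the same IKK2 arrays: 8 of 9 B cell and 6 of 8 myeloid markers were called higher. Most of these markers were well above background in Cre controls too, with Blk, Pax5 and Cd14 on none of the 3 Cre arrays. The B cell mean was fitted as a covariate, as given above, and the part of the myeloid markers was not tested.

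**Figure D4:**
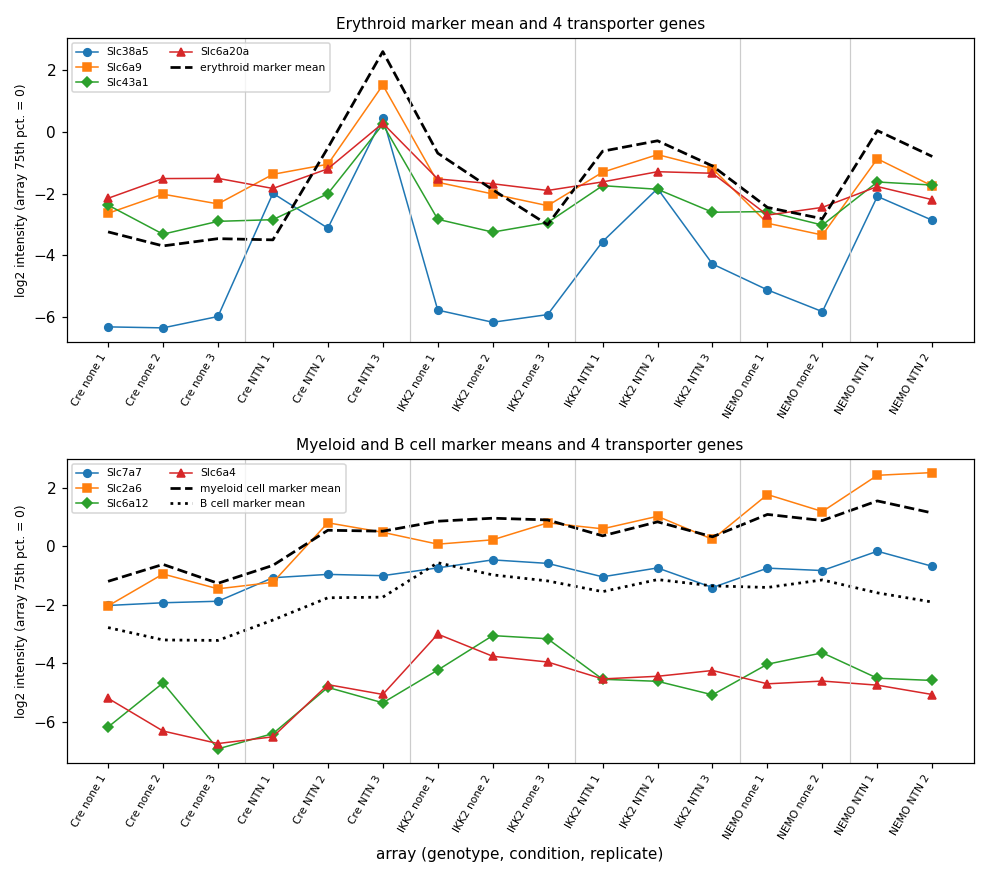
Log2 intensity, with the 75th percentile of each array at 0, on each of the 16 arrays; the upper panel sets the mean of 5 erythroid markers beside 4 transporter genes, and the lower panel the means of 8 myeloid and 9 B cell markers beside 4 others. Cre NTN array 3 is the peak of the erythroid mean (2.60) and of all 4 genes in the upper panel, and in the lower panel Slc7a7 and the B cell mean are lowest on the 3 Cre arrays without NTN.

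NEMO and IKK2 cells were also compared directly. Without NTN 27 members were called, 13 higher and 14 lower in NEMO, against 35.3% of all genes (15.4% higher, 19.9% lower), and with NTN 31, 16 higher and 15 lower, against 46.1% (19% higher, 27.1% lower). The groups did not overlap for 44 and 48 members, against 58.9% and 72.8% of all genes. Slc16a5, at -2.25 and -2.63, and Slc6a8, at 1.96 and 2.12, had large differences in both. So did Slc43a3, at 1.92 and 1.64, and Slc6a13, at 1.25 and 2.10. Slc7a4 was lower, at -1.52 and -1.92, as was Slc7a3, at -2.15 with NTN, while Slc16a8 was higher and Slc16a10 lower without NTN, at 1.72 and -1.54. Slc7a10 was called with NTN, at 2.73 (adjusted p = 0.046), and lost without any 1 of 4 arrays. Slc16a9 with NTN was tested only through the NEMO arrays, and Slc5a2 without NTN was called although no array of either group was well above background. Slc16a3 was higher in NEMO than in IKK2 cells by 1.19 (SE 0.14, adjusted p = 8.1e-05) and 1.52 (SE 0.14, adjusted p = 8.4e-06). Slc2a3 was higher by 0.55 (SE 0.12, adjusted p = 0.0047) and 0.71 (SE 0.12, adjusted p = 0.00060), and Slc1a5 by 0.46 and 0.49. Slc38a2 was lower, at -0.75 and -0.53, and Slc7a5 at -0.86 and -0.90. Without the second NEMO array of the condition the Slc7a5 calls were lost, as was that of Slc2a3 without NTN. Slc16a6 was called higher, at 0.67 and 0.52, but its second probe gave -0.45 and -0.60. Slc38a9 was lower with NTN, at -0.65, Slc7a7 higher with NTN, at 0.64, and Slc5a3 lower without it, at -0.96; the last 2 were lost without the first NEMO array of the condition. Slc2a6 was called with NTN only, at 1.85 (SE 0.52, adjusted p = 0.012), and not without either NEMO array. Slc7a1 was called lower with NTN, at -0.34 (SE 0.11, adjusted p = 0.027), and Slc6a6 higher without it, at 0.37 (SE 0.13, adjusted p = 0.042). The Slc7a1 call was lost without IKK2 NTN array 3 or either NEMO array, and the Slc6a6 call held in 3 of 16 alternatives and was lost without any 1 of the 5 arrays compared. Without the first NEMO array without NTN the count of 27 became 17.

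Few transporter genes were called for NTN. In Cre controls 4 of 65 were called, 2 higher and 2 lower, against 4.03% of all genes (2.56% higher, 1.46% lower), whose median shifted by 0.10. By limma 21 members had an unadjusted p under 0.05, against 3622 of all 14676 genes. The groups did not overlap for 24 members, 36.9%, against 29.5% of all genes. Slc38a5 (SNAT5, which exchanges glutamine and glycine) was not well above background on any Cre array without NTN and was on all 3 with NTN, at -1.99, -3.12 and 0.46 against -6.32, -6.36 and -5.99. It was at least 8.80-fold higher (adjusted p = 0.014), and at least 4.38-fold without the third Cre NTN array. Slc38a5 was well above background on 7 of the 16 arrays, each of them with NTN. It passed the filter only through the condition in which it was high, so its call is no support. Slc7a7 rose by 0.93 (SE 0.16, adjusted p = 0.016), to -1.07, -0.96 and -1.01. In the same comparison 3 of 9 B cell markers (median 1.25) and 2 of 8 myeloid markers (median 1.09) were called higher, and with the B cell mean as a covariate Slc7a7 was at 0.83 (adjusted p = 0.29). The B cell mean did not overlap between these groups either. Slc1a7 fell, at -1.05 (SE 0.23, adjusted p = 0.031), and Slc7a3 fell, at -0.47 (SE 0.10, adjusted p = 0.029). Cre arrays with and without NTN were on different slides, and with slide as a block, fixed or random, 0 of the 4 were called. Under the fixed block the adjusted p was 0.27 for Slc38a5 and for Slc7a7, whose difference was 0.95. Without the first Cre array without NTN 0 were called, and 2 without the third, or without the second Cre NTN array.

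Slc38a5, Slc6a9, Slc43a1 and Slc6a20a all peaked on the third Cre NTN array. Slc6a9 (GlyT1, the glycine carrier that red cell precursors use for haem synthesis) read -1.38, -1.05 and 1.52 in Cre mice with NTN and -2.64, -2.02 and -2.34 without, and was not called. Slc43a1 (LAT3) read -2.85, -2.01 and 0.24 against -2.38, -3.32 and -2.90. The erythroid marker mean was -3.50, -0.52 and 2.60 on the same 3 arrays and -3.70 to -3.24 without NTN, and Hba-a1, Alas2 and Slc4a1 were well above background on all 16 arrays while Epb42 was on none of the 3 Cre arrays without NTN. On the first Cre NTN array, whose erythroid mean lay within the range without NTN, Slc38a5 was at -1.99, and that array had the highest plasma cell marker mean of the Cre arrays, 1.63 against 0.24 and 0.52 with NTN and -0.25 to 0.16 without. The adjusted p for Slc38a5 was 0.026 without the third array and 0.10 with the erythroid mean as a covariate, and the part of the plasma cell markers was not tested.

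In IKK2 mice 0 of 65 members were called with NTN by limma, against 0.443% of all genes. An unadjusted p under 0.05 was found for 15 members, against 2192 of all 14676 genes. The groups did not overlap for 18 members, 27.7%, against 18.2% of all genes. Slc38a5 read -3.56, -1.84 and -4.29 with NTN and -5.78, -6.17 and -5.93 without, and was not called. In NEMO mice 1 member was called, against 0.402% of all genes, and 0.348% in its direction. The groups did not overlap for 30 members, 46.2%, against 46.1% of all genes. It was Slc7a3, which fell from -2.95 and -2.85 to -3.96 and -3.90, a difference of -1.03 (SE 0.12, adjusted p = 0.0031) on arrays of 1 slide. Slc38a5 read -2.09 and -2.87 with and -5.13 and -5.83 without NTN and was not called there.

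The response to NTN itself was compared between genotypes. For IKK2 minus Cre 1 member was called, against 1.13% of all genes and 0.831% in its direction. Slc7a7 rose by 0.93 in Cre mice and differed by -0.47 (adjusted p = 0.19) in IKK2 mice, where it read -1.04, -0.74 and -1.41 with NTN, and the difference of responses was -1.40 (SE 0.23, adjusted p = 0.031). With slide as a block it was -1.41 (adjusted p = 0.074), and with the B cell mean as a covariate -1.25 (adjusted p = 0.32). The B cell markers differed in response by a median of -1.69 and the myeloid markers by -1.31. It was not called without any 1 of the Cre controls 1 and 3, Cre NTN arrays 2 and 3, IKK2 array 2 without NTN or IKK2 NTN array 3. For NEMO minus Cre 0 members were called by limma, against 0.266% of all genes. An unadjusted p under 0.05 was found for 12 of the 65 members, against 1480 of all 14676 genes.

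Genes that act with the transporters were counted in the NEMO minus Cre comparisons, where 43% and 48.4% of all genes were called. Of 20 glycolysis enzymes 9 were higher and 4 lower without NTN, and 6 higher and 4 lower with it. Hk2, which traps glucose in the cell as its phosphate, read -4.57, -3.73 and -3.73 in Cre and -0.69 and -0.58 in NEMO mice without NTN, a difference of 3.38 (SE 0.32, adjusted p = 9.2e-06). Ldhb, which favours pyruvate from lactate, was lower, at -1.50 and -1.80, while Ldha was called higher at 0.29 without NTN only. Of 22 regulators around MYC, mTORC1 and hypoxia-inducible factor, 2 were higher and 8 lower without and 2 higher and 11 lower with NTN, with a median of -0.29 and -0.40. Myc was lower, at -1.18 and -1.50, and the prolyl hydroxylase Egln3, itself induced by hypoxia, was higher, at 2.17 and 1.91.

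Of 19 genes of the amino acid response, 5 were higher and 2 lower without and 5 higher and 4 lower with NTN. Asns, asparagine synthetase, was higher by 3.99 (SE 0.56, adjusted p = 0.00015) and 2.26 (SE 0.56, adjusted p = 0.0061), whereas Trib3 and Ddit3 of the same response were lower, at -1.14 and -0.72 without NTN. Of 14 partners and regulators of transporters, 6 were higher and 3 lower without and 6 higher and 4 lower with NTN. Txnip, which removes glucose carriers from the surface, was lower, at -0.60 and -0.67, and the ubiquitin ligase Nedd4l was lower, at -1.84 and -2.26. Of 19 genes of glutamine and serine metabolism, 4 were higher and 4 lower without and 3 higher and 5 lower with NTN, with Odc1, which makes polyamines, higher by 1.06 and 0.87.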

How the data were processed

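RNA of sorted spleen CD4+ T cells, 0.1 µg per sample, was hybridised to 1-colour Agilent arrays. The authors deposited scanner output with spot intensity on a linear scale, read by Agilent's Feature Extraction software (version 10.7.3.1 per the file headers, although the submitters' processing notes name 10.5), and a matrix of log2 values whose making no label or header states. Between 48.9% and 59.8% of an array's spots counted as well above background. Control and outlier spots were left out, spots of 1 probe averaged, and log2 of the processed intensity was set to each array's 75th percentile. Of 55681 probes, 27235 were named by RefSeq accession. The brightest probe of a gene that was well above background on 2 or more arrays entered limma 3.58.1 (R 4.3.3), fitted with 6 group means, with Benjamini-Hochberg adjustment, and was tested on simulated data. Genes were named by a rule: in each comparison up to 8 called members with the largest difference, and a set of 22 well known uptake genes, of which 21 were tested; the set's genes that were not called are given by value for the comparisons with Cre controls only. Other members appear for their level or as part of a count. Members and lists were chosen with earlier results of these data known. Alternatives were background correction (normexp on median signals, as the files hold no mean signals), scaling, source of values, filter, probe choice, slide, arrays fitted, replicate number, marker covariates (the erythroid one chosen after seeing the data) and leaving out arrays. The precision is limited by 2 or 3 arrays per group.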

Additional observations from a re-analysis of the deposited data

Results flagged for a closer look

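The response of Slc7a7 to NTN differed between IKK2 and Cre mice by -1.40 in a test of the difference itself. The gene was 0.93 higher with NTN in Cre mice and differed by -0.47 in IKK2 mice, and the 3 Cre arrays without NTN held its lowest levels.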

How the results depend on the processing

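Counts of called members in the NEMO comparisons were within 1.5 times of the values reported under every alternative that could be fitted except the B cell covariate, which gave 7 in place of 28 in NEMO minus Cre without NTN, and the omission of NEMO array 1 without NTN, which gave 17 in place of 27 in NEMO minus IKK2. For NTN in Cre controls (4), normexp gave 1, the authors' matrix 2, no filter 2, the omission of Cre NTN array 2 with Cre array 1 gave 1, and slide as a block (fixed or random), only the arrays compared and either marker covariate gave 0. For IKK2 minus Cre without NTN (15), normexp gave 6, the matrix 9, no filter 8, slide fixed 2, slide random 9, the shared slide alone 1, only the arrays compared 4, the B cell covariate 0 and the erythroid covariate 8. For NTN in NEMO (1), normexp, the matrix, the third slide alone and only the arrays compared gave 0. For the IKK2 minus Cre response (1), normexp, no filter, slide fixed, only the arrays compared, the B cell covariate, the same joint omission and the replicate block gave 0. Same-numbered samples showed no clear shared deviation (3 of 36 pairs correlated above 0.1). Their correlations ran from -0.20 to 0.13, against -0.16 to 0.27 for samples of other numbers. With 2 or 3 arrays per group this cannot exclude pairing. The replicate block changed no other count by over 1.5 times. Leaving out 1 array gave 6 to 15 for IKK2 minus Cre without NTN, 0 to 1 with NTN, 0 to 5 for NTN in Cre, 0 to 1 in IKK2, 1 in NEMO, 0 to 3 for the IKK2 minus Cre response, 0 for the NEMO minus Cre response, 19 to 26 and 23 to 30 for NEMO minus Cre, and 17 to 30 and 25 to 29 for NEMO minus IKK2. Of 83 called differences of named genes 79 kept their direction throughout; Slc16a9 in NEMO minus Cre with NTN was -0.029 under normexp, Slc16a6 was 0.37 (median probe) and 0.056 (B cell covariate) in IKK2 minus Cre without NTN and -0.038 (median probe) in NEMO minus IKK2 with NTN, and Slc6a4 in IKK2 minus Cre without NTN was -1.39 under the B cell covariate. The cause was not tested. Scaling over probes detected on all arrays moved the share called higher among all genes for NTN in Cre from 63.6% to 48.1%.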
